A study of Chlamydomonas reinhardtii with 6 samples.

Results

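The comparison set an isolate of the green alga Chlamydomonas reinhardtii that grew as cell groups against an isolate that grew as single cells, by RNA-seq. It held 6 of the 6 libraries of the study: 3 from the cell groups and 3 from the single cells, chosen by the morphotype in the sample labels. Both isolates came from selection lines founded with strain cc1009, the cell groups from a line kept with a predator and the single cells from a line kept without one. Each isolate was grown in chemostats with COOL80 medium for 10 days and then for 5 days under 1 of 3 treatments: no added stress (control), addition of the rotifer Brachionus calyciflorus, which eats the algae, or a nitrogen supply lowered to 40 µM. The RNA of the chemostats of a treatment was pooled before sequencing, so each isolate gave 1 library per treatment.

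The question was whether the transcriptomes of the cell groups and the single cells differed in the same way whatever the environment. The 3 treatments took the place of replicates, and the test therefore asked whether the difference was larger than its spread over treatments. Each morphotype was represented by 1 isolate, and the isolates had also been selected apart from each other. A difference between morphotypes and a difference between these isolates cannot be told apart, and the p-values measure only the spread between these libraries. In bulk RNA, fewer cells that express a gene and less RNA per cell cannot be told apart either.

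Chlamydomonas swims with a pair of flagella and lives inside a wall of glycoproteins without cellulose. A mother cell divides several times within its wall, and the daughters hatch when a wall-lytic enzyme digests it. In related colonial algae such as Gonium and Volvox the daughters stay together in an extracellular matrix. Pherophorins, a family of hydroxyproline-rich glycoproteins, are main components of that matrix in Volvox.

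The libraries held 5453218 to 9054895 reads counted on genes, and 15524 to 16104 of the 17741 genes in the table had a count. Levels are given as CPM, counts scaled to a common library total with a correction for library composition and not divided by gene length, and 3 counts in a library corresponded to 0.31 to 0.574 CPM. The sources at hand pair the gene identifiers with positions in assembly v5.5 but with no symbols. A role is therefore stated only for the 7 genes to which the study's text gives one, and all other genes carry the identifier of the files. No marker of either morphotype is annotated there, so the morphotype labels could not be set against marker genes. In the deposited counts, the authors' mean columns for each morphotype equal the means of the libraries labelled with it. In their normalised table, which was not used, the 2 mean columns hold each other's means, while the library columns carry the same labels. Directions here follow the library labels.

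The single-cell control library stood apart. In it, 20 genes had at least 100 counts each and no more than 5 counts over the other 5 libraries together, while no other library held such a gene. These 20 genes summed to 6337 counts, or 0.07% of that library. The highest was Cre09.g403900 on chromosome 9 (540944 to 544965), with 0, 1 and 0 counts in the control, rotifer and low nitrogen libraries of the cell groups, against 1022, 0 and 0 in those of the single cells. Next came Cre17.g737800 with 759 counts, Cre06.g252892 with 668 and Cre09.g386740 with 506 in the single-cell control. None of the 20 genes entered the test, which asked for reads in at least 3 libraries. A gene called higher in cell groups, Cre03.g205500, had 473, 422 and 514 counts in cell groups, against 59, 0 and 0 in single cells. Only the control among the single-cell libraries had reads of this gene. The main counts are given below with and without this library.

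**Figure D1:**
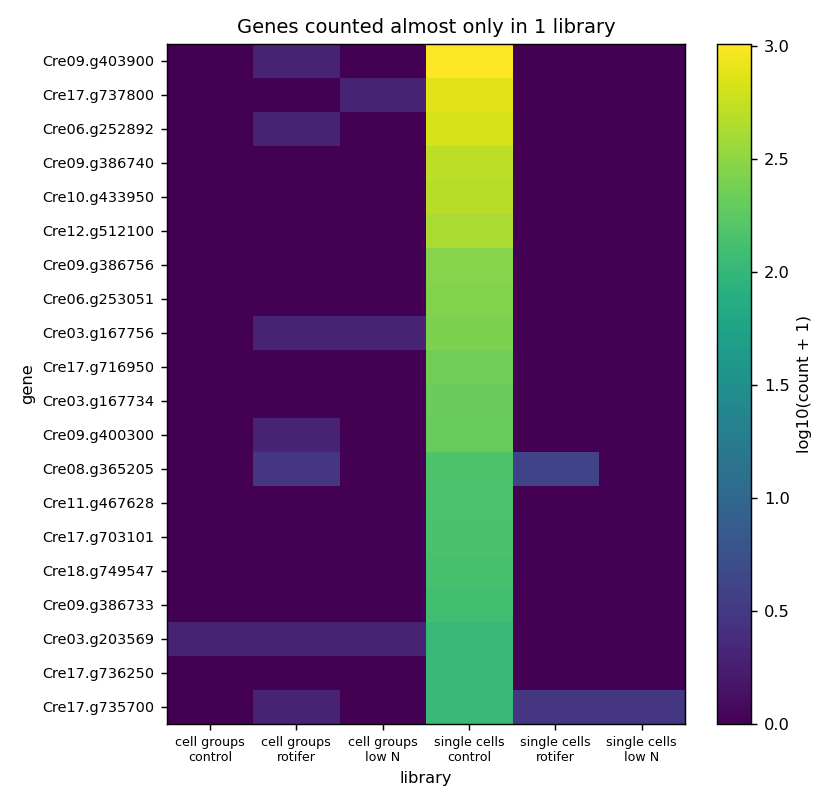
Counts (log10 of count + 1, colour) of the 20 genes, in rows, that had at least 100 counts in the single-cell control library and at most 5 in the other 5 libraries together; columns are the 6 libraries, cell groups left and single cells right. The single-cell control column alone is bright, reaching 1022 counts for Cre09.g403900.

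Across treatments, 1077 of 14136 tested genes differed between the cell groups and the single cells, which is 7.62% (edgeR quasi-likelihood test with treatment as a block, Benjamini-Hochberg adjusted p under 0.05). In cell groups 673 genes (4.76% of those tested) were higher and 404 (2.86%) were lower. The median change was 4.08-fold among the higher genes (log2 fold change 2.03) and 3.82-fold among the lower genes (-1.93). All of the called genes had changed at least 2-fold, 345 of the higher and 191 of the lower at least 4-fold, and 73 and 38 at least 16-fold. Among all tested genes the median log2 fold change was 0.01.

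The called genes moved in the same direction in each treatment, for all 673 higher and all 404 lower genes, against 47.5% of all tested genes. Among the higher genes the median within-treatment log2 ratio was 1.89 in the control, 1.95 with rotifers and 1.93 in low nitrogen. Among the lower genes it was -1.76 in the control, -1.81 with rotifers and -1.99 in low nitrogen. At least 2-fold in each of the 3 treatments was reached by 558 of the higher and 325 of the lower genes. For 663 of the higher and 387 of the lower genes the 3 cell group libraries did not overlap the 3 single-cell libraries, which is 97.5% of the called genes against 30.6% of all tested. The test itself favours genes of this kind, so these shares describe the calls and do not support them.

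**Figure D2:**
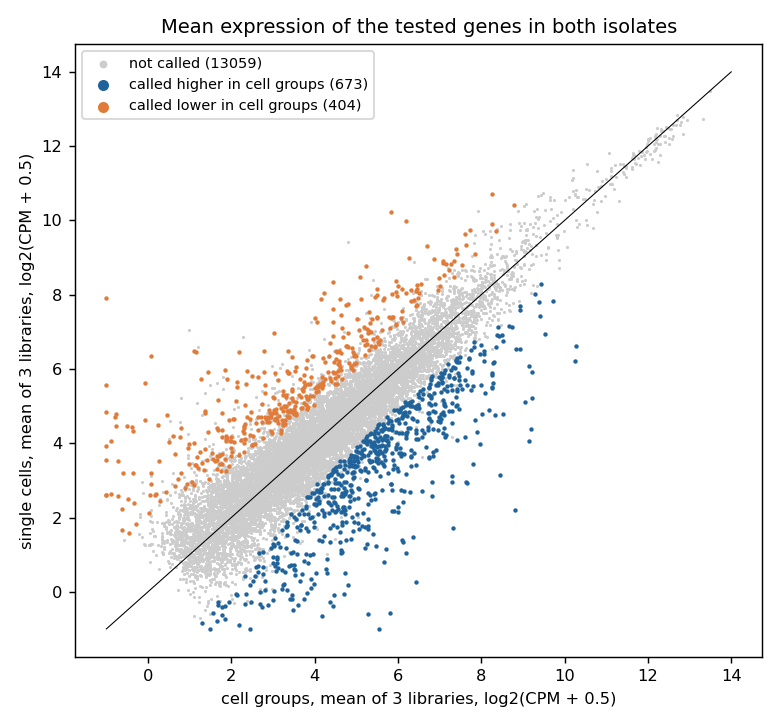
Mean expression of the 14136 tested genes in cell groups (x axis) and single cells (y axis), as log2(CPM + 0.5) of the mean over 3 libraries each; the line marks equal levels. The 673 genes called higher in cell groups lie below the line and the 404 called lower above it, and no called gene lies among the genes with the highest mean CPM at the upper right.

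The size of the list rested on which libraries entered. Without the cell group library of the control, 1999 genes were called, and without the single-cell control 1827. Without the cell group library of the rotifer treatment there were 159, and without that of low nitrogen 380. Without the single-cell rotifer library 137 were called, and without the single-cell low nitrogen library 310. Because treatment was a block, leaving out a library also took its treatment out of the contrast and left 2 treatments. With both control libraries out, 2059 genes were called, among them 1043 of the 1077, or 96.8%. With the single-cell control out and no block, 1606 were called, among them 907 (84.2%). All 1077 genes kept their direction in both of these fits.

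The called genes made up a small share of the reads. Genes called higher held 5.37%, 5.28% and 6.61% of the counts of the control, rotifer and low nitrogen libraries of the cell groups, against 1.42%, 1.25% and 1.52% of those of the single cells. Genes called lower held 1.15%, 1.05% and 1.13% in cell groups, against 4.56%, 3.92% and 4.35% in single cells. These shares follow from the way the genes were chosen and are given to show how much of the transcriptome they make up.

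None of the 100 most heavily counted genes was called by edgeR, while 6 of them had an unadjusted p under 0.05, DESeq2 called 3 and limma 0. The last 3 counts were 3545, 1732 and 1246 for the whole set of 14136 tested genes. Over all tested genes the share called was nevertheless larger among genes with more reads: 2.23% were called higher and 1.1% lower in the quintile of genes with the lowest mean CPM, and 7.07% and 4.28% in the quintile with the highest. By gene length, the share called higher was 3.22% in the shortest quintile and 5.91% in the longest, and the share called lower was 2.58% in both. Called genes were found in each quintile of level and of length.

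The called gene with the highest mean CPM over the 6 libraries was Cre10.g452350 (chromosome 10, 4552550 to 4555246), which ranked 131 by this measure. In the control, rotifer and low nitrogen libraries it had 371, 479.9 and 68.7 CPM in cell groups, against 987, 2722 and 1272 CPM in single cells (log2 fold change -2.69, SE 0.57, adjusted p = 0.0388). Both isolates had their highest level with rotifers, and the groups did not overlap. Among the genes called higher the first by mean CPM was Cre17.g734757 (chromosome 17, 5025008 to 5029447), with 1241, 1100 and 1385 CPM in cell groups, against 6.81, 97.8 and 188 CPM in single cells. Its log2 fold change was 4.39 (SE 0.97, adjusted p = 0.0446). The cell groups were steady over treatments, while the single cells were lowest in the control and highest in low nitrogen.

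The study's text gives a role to 7 genes, all of which it names for DNA variants of the cell group isolates. Of these 7 genes, 5 had enough reads to be tested and 1 was called, against 7.62% of all tested genes. The median log2 fold change of the 5 was 0.09. It was -0.28 without the low nitrogen library of the cell groups and -0.26 without that of the single cells. Without the control library of the cell groups or of the single cells it was 0.31 and 0.35, and without the rotifer library of either it was -0.02. The study drew this list up on DNA of isolates from several strains, while the RNA came from cc1009 lines only. It also compared transcript levels of its variants of interest between the morphotypes. It reported no significant difference, against the 1 call here, but did not discard a joint effect of small changes. The study normalised its counts with DESeq2, and its text gives no threshold for that comparison, while the call here came from edgeR. The results are therefore not like for like.

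The gene called was Cre01.g049826, a pherophorin of the DUF3707 family, the glycoproteins of the extracellular matrix. It lies on chromosome 1 (6879928 to 6923528, assembly v5.5) and spans 43601 bases. In the control, rotifer and low nitrogen libraries it had 184, 312 and 154 CPM in cell groups, against 41.4, 93.0 and 40.9 CPM in single cells. The mean and SD over the 3 treatments, with 1 library each, were 217 ± 83.9 CPM in cell groups and 58.4 ± 29.9 CPM in single cells. The lowest cell group library was above the highest single-cell library, and the rotifer library was the highest in both isolates. The log2 fold change was 1.94 (SE 0.26, adjusted p = 0.00941), or 2.14 in the control, 1.74 with rotifers and 1.91 in low nitrogen. The call was kept without both control libraries (1.79, adjusted p = 0.00385). It was lost when 1 of the other libraries was left out: adjusted p = 0.0718 and 0.054 without the rotifer and low nitrogen libraries of the cell groups, and 0.0781 and 0.0622 without those of the single cells. The log2 fold change stayed between 1.79 and 2.04 in all 6 such fits.

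The other pherophorin, Cre06.g290676 on chromosome 6 (6215092 to 6233523), which the study also links to excretion, was barely expressed. It had 5, 5 and 12 counts in the control, rotifer and low nitrogen libraries of the cell groups, against 8, 0 and 2 in those of the single cells, and was not tested. The glycoprotein gene Cre10.g431050 (chromosome 10, 1806683 to 1818551) was as low, with 6, 5 and 11 counts in cell groups against 28, 5 and 4 in single cells. At this depth no difference was detectable in either gene. Cre12.g522650, for which the study names a region upstream that regulates extracellular matrix protein genes, had 58.7, 60.1 and 54.7 CPM in cell groups, against 95.9, 77.3 and 45.1 CPM in single cells. The ranges overlapped (log2 fold change -0.27, SE 0.28, adjusted p = 0.612).

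The remaining genes of the list concern nutrient uptake, the viscosity of the cytosol and the response to CO2 stress. Cre12.g491600, of nutrient uptake, had 31.1, 27.2 and 35.2 CPM in cell groups against 53.9, 22.1 and 20.7 CPM in single cells. The single cells were higher in the control and lower in both other treatments (log2 fold change 0.09, SE 0.35, adjusted p = 0.91). Cre06.g266300, of cytosolic viscosity, had 29.1, 27.0 and 36.4 CPM in cell groups against 21.2, 20.8 and 28.8 CPM in single cells. The cell groups were higher in each treatment, by 0.39 on the log2 scale, but the ranges overlapped (SE 0.24, adjusted p = 0.365).

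Cre10.g452800, of the CO2 stress response (chromosome 10, 4608866 to 4611901), had 20.0, 21.1 and 35.8 CPM in cell groups, against 19.3, 251 and 108 CPM in single cells. Both control libraries were alike, and the single cells were higher with rotifers and in low nitrogen. Over all treatments the log2 fold change of -1.70 (SE 0.68) did not pass the test (adjusted p = 0.183). It passed without both control libraries (-2.61, adjusted p = 0.00744), with the single-cell control out and no block (-2.80, adjusted p = 0.00474), and in DESeq2 (-1.71, adjusted p = 0.0197). The fits without control libraries were chosen after seeing the data. Without the rotifer library of the cell groups or of the single cells it shrank to -0.78 (edgeR adjusted p = 0.497 and 0.49). It did not pass without the low nitrogen library of either isolate (adjusted p = 0.374 and 0.403) or in limma (0.136).

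**Figure D3:**
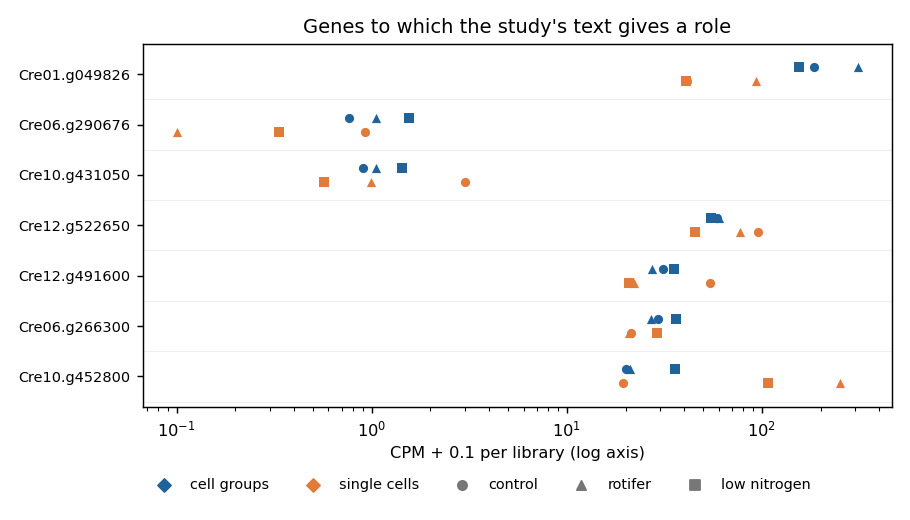
CPM + 0.1 on a log axis for the 7 genes to which the study's text gives a role, 1 point per library; blue points, drawn above, are cell groups and orange points single cells, and the marker shape gives the treatment. Only Cre01.g049826 has its 3 cell group points (154 to 312 CPM) clear of its single-cell points (40.9 to 93.0 CPM) with an adjusted p under 0.05.

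The study also listed genes with amino acid variants shared by the isolates of a morphotype. For cell groups it listed 19, of which 17 were tested and 1 was called (Cre01.g049826), which is 5.88% against 7.62% of all tested genes; their median log2 fold change was 0.10, with 10 positive and 7 negative. For single cells it listed 12, of which 8 were tested and 0 were called by edgeR. Both lists are too small for these counts to be read against the share over all tested genes. In the cell group list, Cre03.g178900, Cre08.g377800 and Cre05.g244050 had an unadjusted p under 0.05 in edgeR without being called. Of the 8 in the single-cell list, 3 had an unadjusted p under 0.05 (Cre14.g609950, Cre17.g711100 and Cre24.g756047), against 3545 of all 14136 tested genes. DESeq2 called 2 of the 8 and limma 1, against 1732 and 1246 of all tested genes.

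Cre24.g756047, on an unplaced scaffold, came closest, with 30.3, 33.1 and 22.2 CPM in cell groups, against 14.6, 8.73 and 11.7 CPM in single cells (log2 fold change 1.29, SE 0.30, adjusted p = 0.0531). The groups did not overlap. Cre14.g609950 (chromosome 14, 317132 to 323187) had 3.87, 0.765 and 0.723 CPM in cell groups, against 7.33, 6.77 and 5.77 CPM in single cells (log2 fold change -2.18, SE 0.59, adjusted p = 0.0776). Cre17.g711100 had 14.1, 15.3 and 14.6 CPM in cell groups against 31.5, 20.3 and 36.7 CPM in single cells (log2 fold change -0.97, SE 0.29, adjusted p = 0.0974). Without both control libraries, 2 genes of this list were called, against 2059 of all 14136 tested genes.

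Large differences in heavily counted genes were sought among called genes with a mean of at least 100 CPM in the isolate where they were higher. There were 166 such genes higher and 103 lower in cell groups, and the 10 with the largest fold change in each direction are described. They were picked after their values were seen.

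The largest fold change among the higher genes was that of Cre02.g099350 (chromosome 2, 4343211 to 4351726). In the control, rotifer and low nitrogen libraries it had 371, 429 and 542 CPM in cell groups, against 3.92, 5.34 and 2.94 CPM in single cells (log2 fold change 6.79, SE 0.40, adjusted p = 0.00304). Cre13.g606652 (chromosome 13, 4990940 to 4997585) had 192, 147 and 138 CPM in cell groups against 3.82, 1.78 and 2.71 CPM in single cells, a log2 fold change of 5.85 (SE 0.33). Both genes were low in the single cells in each treatment. Cre10.g435750 (chromosome 10, 2423447 to 2430622) was the steadiest of the 10 in cell groups, with 347, 351 and 343 CPM against 7.74, 11.9 and 5.42 CPM in single cells (log2 fold change 5.44, SE 0.36). Cre01.g030100 (chromosome 1, 4429093 to 4442052) had 458, 637 and 590 CPM in cell groups, against 14.1, 26.2 and 8.36 CPM in single cells (log2 fold change 5.24, SE 0.42).

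The most heavily counted of the 10 was Cre16.g686750 (chromosome 16, 4744739 to 4750135), with 1345, 1257 and 1034 CPM in cell groups against 65.6, 11.2 and 145 CPM in single cells. Its single-cell level varied strongly with treatment, and the SE of its log2 fold change of 4.59 was 0.80. Cre03.g173100 (chromosome 3, 4106546 to 4113307) had 549, 470 and 737 CPM in cell groups, against 18.3, 23.9 and 18.5 CPM in single cells. The log2 fold changes of the other 4 genes (Cre16.g652483, Cre06.g292249, Cre10.g432150 and Cre05.g242750) lay between 4.41 and 4.90. All 10 stayed called in each fit that left out 1 library, except that Cre16.g686750 was lost without the rotifer library of the cell groups (adjusted p = 0.0638) or of the single cells (adjusted p = 0.0645). Of all 1077 called genes, 12.3% to 95.1% stayed called in these fits. The 10 were picked for large fold changes among the same calls, so this describes them and does not support them.

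Among the lower genes, Cre12.g551353 (chromosome 12, 8132546 to 8135711) had no read in any cell group library and is described with the silent genes. The next was Cre08.g372450 (chromosome 8, 2553650 to 2556775), with 45.5, 53.2 and 71.3 CPM in cell groups, against 779, 1851 and 995 CPM in single cells (log2 fold change -4.33, SE 0.39, adjusted p = 0.00398). All 3 single-cell libraries were above all 3 cell group libraries, and the single cells were highest with rotifers. Cre16.g659700 (chromosome 16, 2350939 to 2352908) had 29.9, 137 and 49.5 CPM in cell groups, against 1554, 659 and 799 CPM in single cells (log2 fold change -3.99, SE 0.70, adjusted p = 0.0228). Cre08.g381750 (chromosome 8, 4366457 to 4369628) had 9.74, 11.5 and 25.7 CPM in cell groups, against 99.9, 146 and 251 CPM in single cells. It was the steadiest of the 10 lower genes over treatments, with log2 ratios of -3.29, -3.61 and -3.27 and an SE of 0.27.

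Several of the lower genes also moved strongly with treatment in both isolates. Cre16.g658400 (chromosome 16, 2194002 to 2195908) had 34.8, 1.91 and 64.6 CPM in cell groups against 592, 68.6 and 402 CPM in single cells, so its rotifer library was the lowest in both. Cre02.g095087 (chromosome 2, 3308258 to 3313916) had 36.8, 1.91 and 15.9 CPM in cell groups, against 634, 19.6 and 136 CPM in single cells. The control cell group library of this gene lay above the single-cell rotifer library, while within each treatment the cell groups were lower. Neither of these genes was called without the block on treatment. Cre05.g237450, Cre02.g107200, Cre02.g087150 and Cre06.g287850 completed the list with log2 fold changes between -3.86 and -3.39.

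Of the 10 lower genes, 4 lost the call without the rotifer library of the cell groups, and likewise without that of the single cells: Cre02.g087150, Cre02.g107200, Cre05.g237450 and Cre16.g658400. Cre02.g107200 and Cre16.g659700 lost it without the low nitrogen library of either isolate. All 10 stayed called without the control library of either isolate. Of all 1077 called genes, 95.1% stayed called without the control library of the cell groups and 93.7% without that of the single cells. Without the rotifer library these shares were 14.2% and 12.3%.

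**Figure D4:**
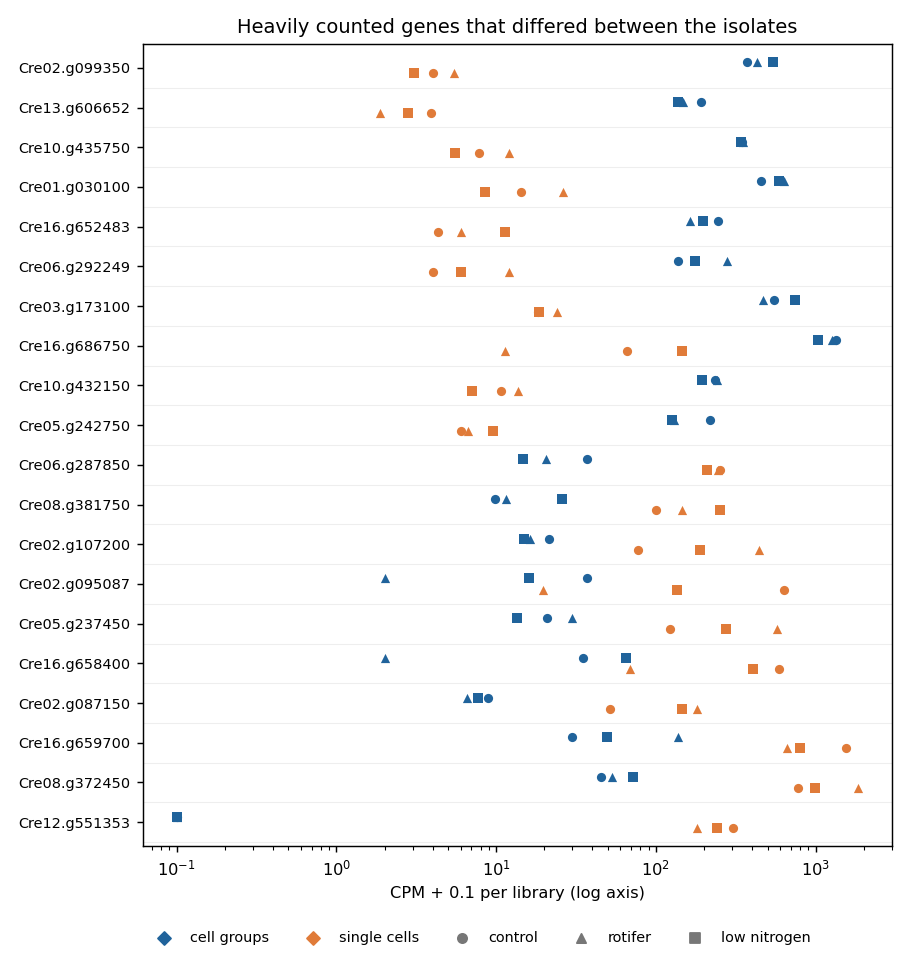
CPM + 0.1 on a log axis, 1 point per library, for the 10 genes higher in cell groups (upper rows) and the 10 lower in cell groups (lower rows) with the largest fold changes among heavily counted called genes; blue points are cell groups, orange points single cells, and shapes give treatments. The isolates are apart in all rows but Cre02.g095087, where the cell group control library (36.8 CPM) lies above the single-cell rotifer library (19.6 CPM), and Cre12.g551353 is at 0 in all cell group libraries.

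Some called genes were close to silent in 1 isolate, here at most 3 counts over its 3 libraries. There were 16 such genes in cell groups and 9 in single cells. With no count at all allowed there were 7 and 3, and with up to 10 counts allowed 28 and 31, so the balance between isolates depended on the limit.

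Cre12.g551353 had 0, 0 and 0 counts in the control, rotifer and low nitrogen libraries of the cell groups, against 2926, 1015 and 2036 in those of the single cells. With a floor of 3 counts per library, it was at least 541-fold lower in cell groups. Its neighbour Cre12.g551352 (8129526 to 8132497) had 0, 0 and 0 counts in cell groups against 839, 209 and 148 in single cells, at least 106-fold lower. The next gene on that side, Cre12.g551350 (8119530 to 8129425), was expressed in both isolates, with 20.1, 24.5 and 31.0 CPM in cell groups against 92.7, 125 and 129 CPM in single cells (log2 fold change -2.20, SE 0.25). All 3 genes of this stretch of chromosome 12 were lower in cell groups. The bounds of the 2 genes without reads differ only through their levels in single cells and do not rank them.

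A similar stretch lay on chromosome 10 (3941116 to 3954275). Cre10.g448500 had 0, 0 and 0 counts in cell groups against 184, 212 and 235 in single cells, at least 63.2-fold lower. Beside it, Cre10.g448450 had 0, 0 and 2 counts in cell groups against 256, 175 and 162 in single cells. The single cells were at 262 times the level of the cell groups, with an exact 95% interval of 72.3 to 2170 that covers counting error only. The third gene, Cre10.g448400, was expressed in cell groups as well, at 5.34, 9.95 and 7.83 CPM against 37.1, 84.6 and 55.1 CPM in single cells (log2 fold change -2.90, SE 0.26).

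On chromosome 16 (6347099 to 6365750), 3 adjacent genes were silent in cell groups together. Cre16.g674000 had 0, 0 and 0 counts in cell groups against 134, 97 and 109 in single cells, at least 32.9-fold lower. Cre16.g674050 had 0, 0 and 0 against 91, 28 and 21, at least 12.6-fold lower, and Cre16.g674100 had 0, 0 and 1 against 245, 61 and 106. Farther along (6445080 to 6463987) lay another run of lower genes, among them Cre16.g673300 with 1, 1 and 0 counts in cell groups against 241, 37 and 12 in single cells. Cre16.g659667, also silent in cell groups with 1, 0 and 1 counts against 404, 42 and 130, lies next to the heavily counted Cre16.g659700.

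The genes silent in single cells were mostly of low CPM in cell groups. Cre06.g285600 (chromosome 6, 5586996 to 5594217) had 369, 211 and 399 counts in cell groups against 0, 0 and 0 in single cells, at least 115-fold higher. Cre15.g643191 (chromosome 15, 1470991 to 1483266) had 271, 247 and 686 counts in cell groups against 0, 3 and 0 in single cells, a ratio of 454 with an exact 95% interval of 155 to 2204. The other 7 had mean levels of 1.95 to 4.99 CPM in cell groups.

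The largest of these patterns were present in each single-cell library. Cre12.g551353, Cre12.g551352, Cre10.g448500, Cre16.g674000 and Cre16.g674100 each had at least 50 counts in all 3 single-cell libraries and at most 1 in each cell group library. Cre06.g285600 was the only gene with the opposite pattern at the same limits, and 7809 genes had at least 50 counts in all 6 libraries. Of the 25 silent genes, all 25 stayed called without both control libraries, 12 without the cell group rotifer library and 11 without the single-cell rotifer library. Without the low nitrogen library it was 15 (cell groups) and 12 (single cells). Silent genes were taken from the called genes and passed the filter through the isolate that expressed them. These counts therefore describe the genes and do not support them. By definition none could enter the fit that asked for at least 10 counts in every library. Of all 1077 called genes, 96.8% stayed called without both control libraries. The share was 14.2% and 12.3% without the rotifer library of the cell groups and of the single cells, and 31.6% and 26.8% without that of low nitrogen.

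Called genes lay beside others called in the same direction more often than tested genes as a whole, though most did not. Of the genes called higher, 22.3% had a directly adjacent tested gene that was also higher, against 9.08% of all tested genes, and 4.97% had one that was lower, against 5.61%. Of the genes called lower, 14% had a lower neighbour, against 5.61% of all tested genes, and 7.75% a higher one, against 9.08%. These shares are a description, and the part of reads shared between neighbouring gene models was not tested.

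In 13 places at least 3 consecutive tested genes were called in the same direction, 7 times higher and 6 times lower, with 44 genes in all. The longest was a run of 5 higher genes on chromosome 2 (8469956 to 8535837). Its 5 genes, Cre02.g141766, Cre02.g141786, Cre02.g141806, Cre02.g141826 and Cre02.g141886, had log2 fold changes between 2.17 and 5.62. Cre02.g141786 had 77.3, 57.4 and 84.8 CPM in cell groups, against 2.89, 0.534 and 1.29 CPM in single cells. Cre02.g141806 was expressed in both isolates, with 128, 145 and 151 CPM in cell groups against 13.4, 25.3 and 15.7 CPM in single cells. Within the span 2 further genes had too few reads to be tested.

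Chromosome 9 held a run of 4 higher genes (4807515 to 4828432) with log2 fold changes between 1.68 and 5.63. Its Cre09.g397401 had 23.9, 30.2 and 22.4 CPM in cell groups, against 0.516, 0.178 and 0.706 CPM in single cells, and Cre09.g397475 had 84.7, 82.8 and 66.1 CPM against 8.67, 6.06 and 3.18 CPM. Chromosome 1 held 3 of the runs of higher genes, all between 4357855 and 4840941. The second of these ended with Cre01.g030100, one of the 10 heavily counted higher genes, while its other 3 genes had log2 fold changes of 1.27 to 2.01.

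A run of 3 higher genes on chromosome 12 (867585 to 996161) ended 128 bases before Cre12.g491600, the nutrient uptake gene with variants shared by the cell group isolates. The last gene of the run, Cre12.g491952, had 8.54, 15.9 and 4.22 CPM in cell groups, against 0.413, 1.07 and 0.118 CPM in single cells (log2 fold change 4.26, SE 0.49), while Cre12.g491600 itself did not pass the test. Within the span of the run 4 further genes had too few reads to be tested.

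Of the runs of lower genes, that on chromosome 10 (753061 to 771235) held Cre10.g422900, with 30.02, 16.8 and 26.3 CPM in cell groups against 208, 115 and 196 CPM in single cells (log2 fold change -2.82, SE 0.25). Cre10.g422876 in its middle was silent in cell groups, with 2, 0 and 0 counts against 335, 98 and 245 in single cells. Its annotated span overlaps that of the first gene of the run, Cre10.g422850, so reads of this pair cannot be fully told apart. The run on chromosome 9 (1723585 to 1745328) was highest in the single-cell control: Cre09.g396600 had 5.74, 5.74 and 0.602 CPM in cell groups, against 167, 60.0 and 33.3 CPM in single cells. All 3 of its genes were lower in cell groups in each treatment.

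Of the 44 genes in runs, 43 stayed called without both control libraries, and 21 without the rotifer library of either isolate. Without the low nitrogen library 26 (cell groups) and 23 (single cells) stayed called. The runs were made up of called genes, so these counts describe them and do not support them. Of all 1077 called genes, 96.8% stayed called without both control libraries. The share was 14.2% and 12.3% without the rotifer library of the cell groups and of the single cells, and 31.6% and 26.8% without that of low nitrogen.

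**Figure D5:**
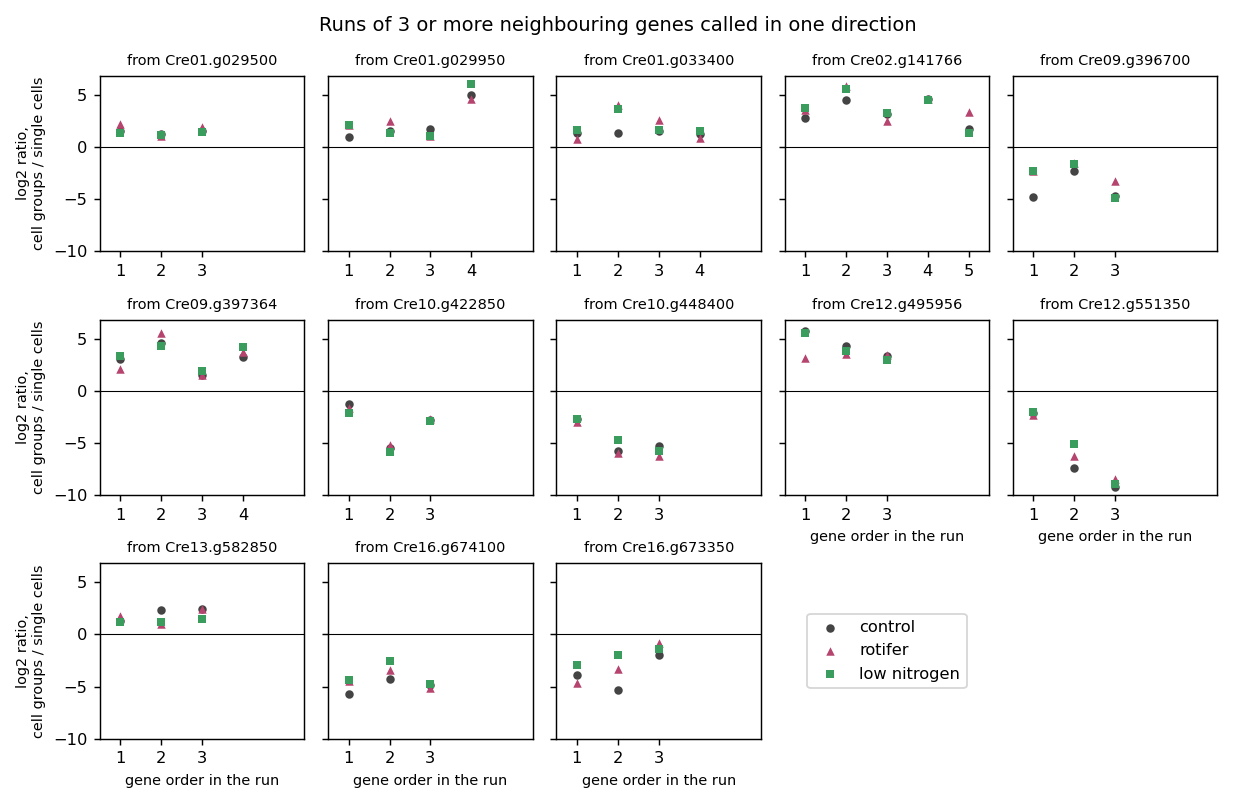
Within-treatment log2 ratio of cell groups over single cells (y axis, on log2(CPM + 0.5) values) for the genes of the 13 runs, in gene order along the chromosome (x axis); each panel is 1 run, titled by its first gene, and marker and colour give the treatment. Points of all 3 treatments lie on the same side of 0 for all 44 genes, and 7 panels lie above and 6 below 0.

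Called genes were found on all 17 chromosomes. The share called ran between 5.31% on chromosome 5 and 10.6% on chromosome 4, with chromosome 16 next at 10.2%, against 7.62% of all tested genes. On chromosome 16, 61 of 1054 tested genes were higher and 47 lower (5.79% and 4.46%). On chromosome 4, 28 of 444 were higher and 19 lower (6.31% and 4.28%). More genes were called higher than lower on each chromosome.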

How the data were processed

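RNA was extracted with the RNeasy Plant Mini kit and sequenced as paired reads on Illumina HiSeq. According to the methods and notes of the submitters, reads were checked with FastQC, mapped with HISAT2 to the version 5.0 genome and counted per gene with HTSeq; tool versions and strand setting are not given in the sources used here. The methods describe potential contamination of the rotifer samples, seen as a larger share of reads left unmapped than in the other samples. The authors deposited these counts as whole numbers without normalization, and all values here came from them. They also deposited normalised values, which were not used, and a table with the results of their own comparisons (fold changes and adjusted p-values), which was not used either.

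Libraries were grouped by the labels. A gene was tested if 3 libraries or more held it at 1.3 CPM, which is 10 counts at the median library size, and if its counts summed to at least 15. Counts were fitted with edgeR 4.0.16 in R 4.3.3 (TMM factors, treatment as block plus isolate, quasi-likelihood F test) and called at a Benjamini-Hochberg adjusted p under 0.05. The biological coefficient of variation was 0.345. Standard errors were the log2 fold change over the root of F. Levels within a treatment are log2(CPM + 0.5), with 1 library a side and no test. Counting intervals and floors cover counting error only. The procedure was also run on simulated counts with a common dispersion and no effect of treatment. That run cannot give the rate of false calls in these libraries, where the spread is over treatments.

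The treatment is the replicate number shared by both isolates, so the block pairs libraries of the same treatment, as the labels give it. The alternatives were DESeq2's size factors, no filter, at least 10 counts in every library, no block, DESeq2 1.42.0, limma 3.58.1, leaving out each library, other limits for silent genes, and 2 fits without the control libraries that were chosen after seeing the data.

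Gene positions came from the RefSeq table of assembly v5.5, which matched 17738 of 17741 identifiers; 35 of 35 coding variants listed by the study fell inside the span of their gene. The rule for named genes took members of the variant lists, the genes the study names, and called or silent genes that carry a name. As no symbols are given, its lists by function and its parts that need a name could not be applied. Heavily counted, silent, neighbouring and library-specific genes were named after their values were seen. The gene lists and comparisons were chosen with earlier results of these data known.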

Additional observations from a re-analysis of the deposited data

Results flagged for a closer look

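The single-cell control library held reads on 20 genes, with 100 counts or more each, that had at most 5 counts over the other 5 libraries. These genes entered no comparison. None of the other 5 libraries held a gene of this kind, and the part of this library in the results is given by the counts of calls without it.

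Cre09.g397850, on chromosome 9 (1530039 to 1537130), has an amino acid variant shared by the cell group isolates. It had 34.8, 25.8 and 21.7 CPM in the control, rotifer and low nitrogen libraries of the cell groups, against 11.6, 90.3 and 8.48 CPM in those of the single cells. Its log2 ratio was 1.55 in the control, -1.79 with rotifers and 1.30 in low nitrogen, a spread of 3.34. With 1 library per isolate and treatment, the difference between treatments was not tested.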

How the results depend on the processing

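All 1077 genes kept their direction in each alternative that tested them. DESeq2's size factors gave 1046 calls, no filter 1165, at least 10 counts in every library 917, no replicate block 1054 (882 of them shared with the 1077) and limma 1246. DESeq2's test gave 1732 calls, 769 of them lower. Leaving out 1 library gave 137 to 1999 calls, with 91 to 1047 higher and 46 to 952 lower; the fits without a rotifer library had the fewest. Without both control libraries there were 2059 calls, 1085 higher and 974 lower. With the single-cell control out and no replicate block, 697 genes were lower. Fewer libraries entered the fits that left some out. The number of calls rose in those without a control library and fell in those without a rotifer or low nitrogen library. The cause of the shifts was not tested.

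In the list of genes named by the study, 2 members were called by DESeq2, without both controls, and with the single-cell control out and no block; leaving out 1 library gave 0 to 2, with a median log2 fold change of -0.28 to 0.35. In the cell group variant list, 2 were called by DESeq2 and with the single-cell control out and no block, and 0 to 1 without 1 library. In the single-cell variant list, 1 was called without a filter, without the block, by limma, and with the single-cell control out and no block, 2 by DESeq2 and without both controls, and 0 to 2 without 1 library. Over all tested genes the calls numbered 1732 by DESeq2, 2059 without both controls, and 1606 with the single-cell control out and no block. They numbered 1165 without a filter, 1054 without the block, 1246 by limma and 137 to 1999 without 1 library. The lists are too small for their counts to be read against these. Genes silent in cell groups and in single cells numbered 7 and 3 at a limit of 0 counts, and 28 and 31 at a limit of 10. Depth limits the genes near 3 counts per library.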
